A study of Mus musculus with 6 samples.

Results

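Chemokine transcripts were examined in tumor-initiating cells (TICs) and in the remaining tumor cells of murine mammary carcinomas. The list held 8 chemokine genes, Cxcl12, Cxcl14, Ccl2, Ccl7, Cxcl1, Cxcl16, Cx3cl1 and Ccl20, and each was found by its Ensembl identifier among the 41388 genes counted. Cxcl12, Cxcl14, Ccl2 and Ccl7 are treated here as stromal chemokines, and Cxcl1, Cxcl16, Cx3cl1 and Ccl20 as epithelial chemokines. This division is a working one from general knowledge of where these genes are mainly made, and several of them, Cxcl14 and Ccl2 among them, can be made by either compartment.

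The cells came from mammary tumors of FVB/N mice that carry the polyoma middle T oncogene behind the MMTV promoter (strain FVB/N-TgN(MMTVPyVT)634Mul/J), which drives the oncogene mainly in mammary epithelium. The study used mice of 12 weeks of age for its experiments with TICs. TICs were sorted as CD24+CD90+CD45- cells. The other group, given only as primary cells in the labels, is the study's non-CD24+CD90+ tumor cells and is called comparison cells below. It was depleted of CD45+ cells in the same way and held cells lacking either or both of CD24 and CD90. No treatment was given, and all samples share the transgene and the CD45 depletion. RNA was sequenced from 3 samples per group, each a pool of 4 cell sorts from tumors of 4 mice. The labels do not say whether samples of the different groups came from the same animals. The total count per sample lay between 6781239 and 8450038 for comparison cells and between 8114933 and 9100552 for TICs, so that 3 counts correspond to 0.330 to 0.438 CPM (counts scaled to a common library size). Of genes predicted at 50 to 150 counts from the other samples of their group, 4.80% to 6.45% had no count at all in the comparison samples and 10.7% to 15.1% in the TIC samples, so that this share moved with the groups compared. Its part in the results was not tested. TIC replicate 3 stood farthest from the other samples, with a mean root mean square distance of 2.14 on the log2 CPM scale against 1.74 to 1.95 for the other samples.

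Chemokines are small secreted proteins that bind to glycosaminoglycans and attract cells carrying matching G protein-coupled receptors. They are classed by the spacing of their first cysteines into the CC, CXC and CX3C families. In mammary tumors, chemokines of fibroblasts and of tumor epithelium are known to recruit monocytes, neutrophils and lymphocytes and to act on tumor cells themselves. Cxcl16 and Cx3cl1 are made as membrane proteins that tether cells and are released by cleavage, whereas the others are secreted directly.

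Before the values, 3 promoters are shown, because they belong to the called stromal gene, to the stromal gene that followed it most closely across samples, and to the epithelial gene that is the textbook target of NF-kB. The reference table held a promoter for 5 of the 8 genes (Cxcl12, Cxcl14, Cxcl1, Cx3cl1 and Ccl20). Each run gives the 250 bases before the start of transcription in RefSeq on GRCm38.p6, written 5′ to 3′ along the gene's own strand, for Cxcl14 (chr13:56296552-56296801, minus strand), Cxcl12 (chr6:117168285-117168534, plus strand) and Cxcl1 (chr5:90890995-90891244, plus strand). Capitals mark matches on either strand to the kB motif of NF-kB (3 G, any 2 bases, 3 T and 2 C), the GC box GGGCGG and the TATA motif TATAAA.
Cxcl14: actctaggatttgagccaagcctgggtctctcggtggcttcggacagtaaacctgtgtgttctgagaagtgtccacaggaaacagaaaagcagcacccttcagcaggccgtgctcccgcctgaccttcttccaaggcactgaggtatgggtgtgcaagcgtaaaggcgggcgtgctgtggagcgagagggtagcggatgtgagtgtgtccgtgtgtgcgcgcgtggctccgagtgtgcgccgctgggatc
Cxcl12: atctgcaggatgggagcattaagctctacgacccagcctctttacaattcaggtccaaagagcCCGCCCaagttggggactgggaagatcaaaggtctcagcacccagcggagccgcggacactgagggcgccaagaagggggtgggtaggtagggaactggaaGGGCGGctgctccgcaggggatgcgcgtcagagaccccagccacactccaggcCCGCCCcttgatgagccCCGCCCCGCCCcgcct
Cxcl1: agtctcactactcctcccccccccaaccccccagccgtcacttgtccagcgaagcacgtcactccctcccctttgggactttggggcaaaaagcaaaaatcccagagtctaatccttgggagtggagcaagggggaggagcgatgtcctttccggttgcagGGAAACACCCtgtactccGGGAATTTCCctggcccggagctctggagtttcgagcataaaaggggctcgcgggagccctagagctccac
The Cxcl1 window held 2 matches to the kB motif, GGGAATTTCC starting 71 bases before the start site and GGAAACACCC on the other strand starting 89 bases before it. That motif was present in 1.41% of all 32851 promoter windows of this length. The Cxcl12 window held 5 matches to the GC box, of which the last pair share a base, and 32.7% of all windows held this motif. Of the windows that are not printed, that of Ccl20 held 1 match to the kB motif, and that of Cx3cl1 held 1 GC box and 1 TATA motif. The Cxcl14 window held none of the 3 motifs, and TATAAA was found in 12.4% of all windows. The GC content was 64.4% for Cxcl12, 59.6% for Cxcl14 and 59.2% for Cxcl1. These matches describe the letters in the window, and binding was not measured.

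The question put to the counts was whether TICs and comparison cells differed in their chemokines, and whether stromal and epithelial members behaved alike. Expression is given as CPM normalized by the trimmed mean of M-values (TMM), and the groups were compared with edgeR's exactTest. A gene was called when its p-value, adjusted by Benjamini-Hochberg over the 12192 genes exceeding 1 CPM in 3 or more samples, was below 0.1. Of the 8 chemokines, 7 passed this filter, and Ccl20 did not. Ccl2 was above 1 CPM in all 3 TIC samples and in only 1 sample of the comparison cells, so that it passed through the group in which it was higher. Cxcl16 was above 1 CPM in 3 TIC samples and in 2 comparison samples, and would not have passed on the comparison samples alone either. Of the 7, 1 was called, Cxcl14, which was higher in TICs. Among all genes tested 1.55% were called, 1.36% as higher and 0.189% as lower in TICs. The quasi-likelihood test called 0 of the 7, against 0.41% of all genes, and DESeq2 called 2, Cxcl14 and Ccl2, against 2.58%. At an unadjusted p below 0.05 there were 3, Cxcl14, Ccl2 and Cxcl12, against 7.85%. In Cxcl14 and Ccl2 every TIC sample was above every comparison sample, an order found in 7.69% of all genes, and in none of the 7 was every TIC sample below, an order found in 7.56%. All 4 stromal chemokines had positive log2 fold changes, with a median of 1.39. The 3 epithelial ones that were tested were positive too, with a median of 0.23. The median over all genes tested was -0.0061. The smallest p that exact permutation allows for 3 samples per group is 0.1. Smaller values therefore rest on edgeR's estimate of the spread over many genes.

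**Figure D1:**
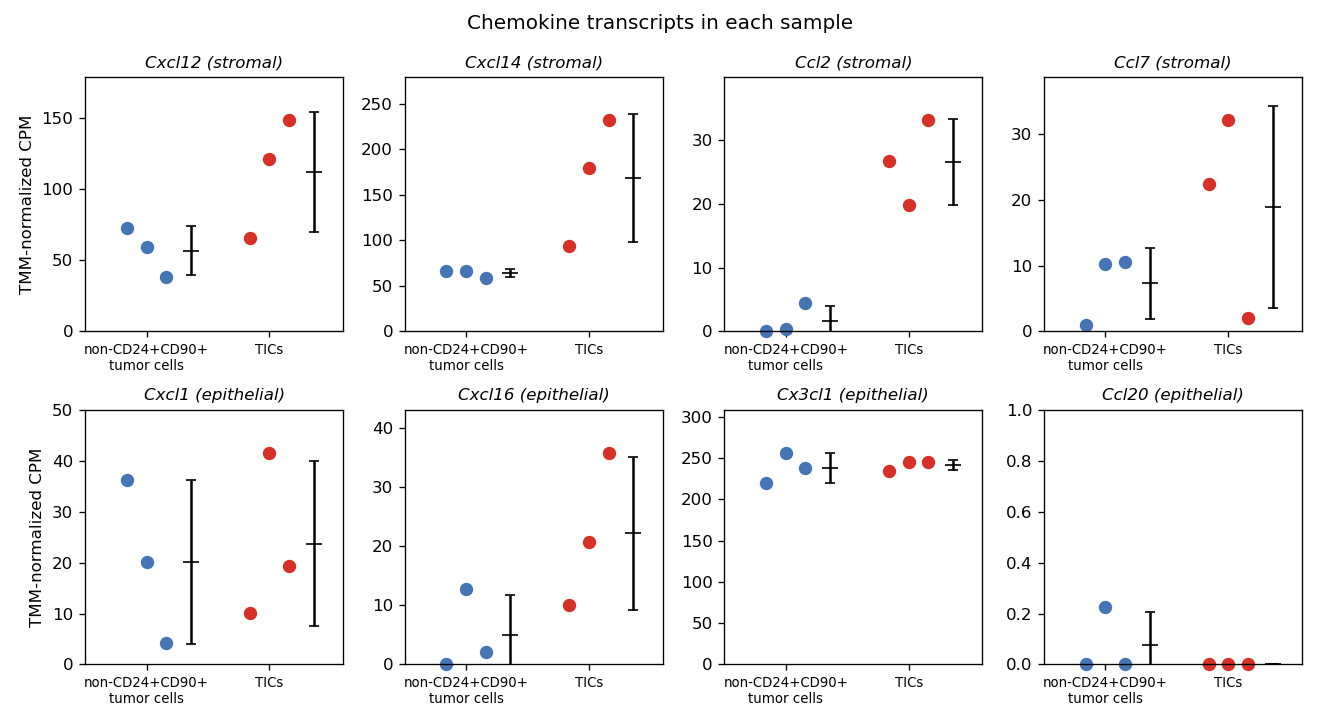
TMM-normalized CPM (linear axes starting at 0, scaled to each gene) of the 8 chemokines in non-CD24+CD90+ tumor cells (blue, 3 samples) and in TICs (red, 3 samples). Each point is a sample, and black bars give the mean ± SD of the group, with lower ends cut at 0. Cxcl14 and Ccl2 were above every sample of the other group in all TICs, whereas Cx3cl1 lay between 219.9 and 257 CPM in every sample.

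Cxcl14 (ENSMUSG00000021508, GRCm38 chromosome 13, 56288643 to 56296551, minus strand) encodes a CXC chemokine that is abundant in skin and other epithelia and in tumor-associated fibroblasts. It reached 93.2, 179 and 233 CPM in TIC replicates 1 to 3 and 66.8, 66.3 and 58.9 CPM in the comparison replicates. All TIC samples were above all samples of the other group, which were close to each other. The means were 168 ± 70.3 CPM in TICs and 64.0 ± 4.42 CPM in the comparison cells (SD, n = 3). This was a 2.63-fold difference, or 1.40 ± 0.37 on the log2 scale (± standard error), with an adjusted p of 0.0267 in exactTest. The call was lost in edgeR's quasi-likelihood test (adjusted p = 0.169). It was also lost without replicate 1, 2 or 3 of the comparison cells (adjusted p = 0.151, 0.191 and 0.233) and without TIC replicate 2 or 3 (adjusted p = 0.146 and 0.192), while the log2 fold change stayed between 1.11 and 1.70.

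Cxcl12 (ENSMUSG00000061353, chromosome 6, 117168535 to 117181367, plus strand) encodes the ligand of Cxcr4 and Ackr3 and is a chemokine of mesenchymal cells that retains stem and progenitor cells in their niches. Its level was 66.1, 122 and 149 CPM in TIC replicates 1 to 3 and 72.7, 59.4 and 38.6 CPM in the comparison cells. TIC replicate 1 lay among the values of the other group, and the remaining TIC samples lay above them. The means were 112 ± 42.3 CPM in TICs and 56.9 ± 17.2 CPM in the comparison cells (SD, n = 3). The log2 fold change was 0.98 with a 95% interval from 0.18 to 1.78, and it did not pass the threshold over all genes (adjusted p = 0.399). Without TIC replicate 1 it did, with a log2 fold change of 1.27 and an adjusted p of 0.0782.

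Ccl2 (ENSMUSG00000035385, chromosome 11, 82035571 to 82037453, plus strand), the main attractant of inflammatory monocytes, had the largest log2 fold change of the 7 genes tested. It had 244, 171 and 253 counts in TIC replicates 1 to 3 and 0, 3 and 31 counts in the comparison cells, which is 26.7, 19.8 and 33.2 CPM against 0, 0.339 and 4.42 CPM. The groups did not overlap, and among the comparison samples only replicate 3 exceeded 3 counts. The log2 fold change was 4.06 with a standard error of 1.21 (adjusted p = 0.176 from exactTest). DESeq2 called it (adjusted p = 0.0328), as did exactTest with trended dispersions (adjusted p = 0.0561), and the quasi-likelihood test did not (adjusted p = 0.379). Leaving out replicate 3 of the comparison cells moved the log2 fold change to 7.09 (adjusted p = 0.00924), where the lower group is left with 3 counts in all.

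Ccl7 (ENSMUSG00000035373, chromosome 11, 82045712 to 82047525, plus strand) lies next to Ccl2 and encodes a related monocyte attractant. TIC replicates 1 to 3 had 22.4, 32.2 and 2.10 CPM, and the comparison cells had 1.02, 10.3 and 10.5 CPM. The groups overlapped, because TIC replicate 3 was below most of the other group although the same sample had the highest Ccl2. The log2 difference between the groups, 1.37 ± 1.16 (standard error, adjusted p = 0.987), had a 95% interval from -0.89 to 3.64. The neighbouring genes thus shared a sign and differed in which samples carried it.

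Cx3cl1 (ENSMUSG00000031778, chromosome 8, 94772009 to 94782427, plus strand), or fractalkine, the membrane-bound ligand of Cx3cr1, was the steadiest of the 8 genes. It had 234, 245 and 245 CPM in TICs and 219.9, 257 and 238 CPM in the comparison cells. The means of 242 ± 6.13 and 238 ± 18.4 CPM (SD, n = 3) lay within the range of the single samples. The log2 fold change was 0.022 with a 95% interval from -0.53 to 0.57, which leaves room for a difference of either sign within these limits (adjusted p = 1). With library size alone as scaling it was -0.042, and without replicate 1 of the comparison cells -0.021.

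Cxcl1 (ENSMUSG00000029380, chromosome 5, 90891241 to 90893115, plus strand), a neutrophil attractant whose window with its kB motifs is shown above, varied widely within each group. Its values were 10.1, 41.7 and 19.4 CPM in TICs and 36.4, 20.1 and 4.13 CPM in the comparison cells. The groups overlapped over nearly their whole range. The log2 difference, 0.23 ± 0.85 (standard error, adjusted p = 1), turned negative without replicate 3 of the comparison cells (-0.25) or without TIC replicate 2 (-0.45), and was 0.98 without replicate 1 of the comparison cells.

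Cxcl16 (ENSMUSG00000018920, chromosome 11, 70453983 to 70459984, minus strand), the transmembrane ligand of Cxcr6 and a scavenger receptor, was measured at 10.1, 20.8 and 35.9 CPM in TICs and at 0, 12.8 and 2.14 CPM in the comparison cells. Replicate 2 of the comparison cells exceeded TIC replicate 1, so that the groups overlapped. Comparison replicate 1 had 0 counts of Cxcl16, in a library where 5.01% of the genes predicted at 50 to 150 counts were at 0, while replicate 2 had 113 counts. The log2 fold change was 2.15 with a 95% interval from -0.34 to 4.65 (adjusted p = 0.871). It was 4.36 without comparison replicate 2 (adjusted p = 0.503). Exons of Cxcl16 share 552 bases with Zmynd15 on the opposite strand, and whether the counting used strand is not given in the sources used here. Zmynd15 itself had 61 counts in replicate 3 of the comparison cells and 0 elsewhere.

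Ccl20 (ENSMUSG00000026166, chromosome 1, 83116766 to 83119167, plus strand), the ligand of Ccr6 and a product of inflamed epithelium, had 2 counts in replicate 2 of the comparison cells and 0 counts in the other 5 samples. It was thus at or below the level of 3 counts in every sample, and no difference was detectable at this depth.

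**Figure D2:**
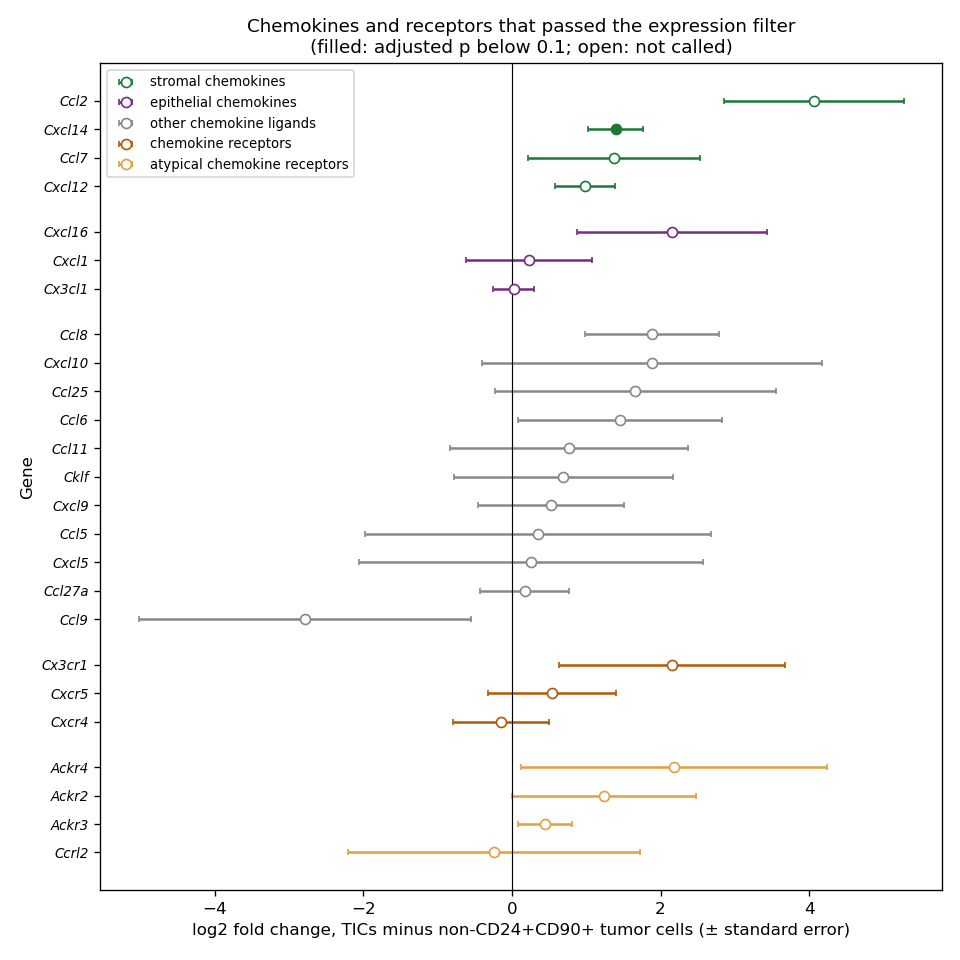
Log2 fold change of TICs against non-CD24+CD90+ tumor cells with its standard error for the chemokines and receptors that passed the expression filter, grouped by list. The filled point is called at an adjusted p below 0.1, which holds for Cxcl14, and open points are not called.

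Levels of different genes were compared per kilobase (kb) of annotated exon. In the comparison cells Cx3cl1 led with 60.6 ± 4.68 TMM-normalized CPM per kb (SD, n = 3), and Cxcl14 followed with 35.0 ± 2.42. Neither overlapped with the next gene in the order. Cxcl1, Ccl7 and Cxcl12 came next with 10.8, 9.09 and 6.96 CPM per kb, and neighbours among them overlapped. Cxcl16 and Ccl2 were at 1.65 and 1.39 CPM per kb. In TICs Cxcl14 had the highest mean, 92.2 ± 38.5 CPM per kb, and Cx3cl1 was next with 61.5 ± 1.56. Their values overlapped, because Cxcl14 was below Cx3cl1 in TIC replicate 1. Ccl7, Ccl2, Cxcl12, Cxcl1 and Cxcl16 followed with 23.6, 23.4, 13.7, 12.7 and 7.36 CPM per kb, and neighbours among these 5 overlapped, while Cx3cl1 was above Ccl7 in every sample. Ccl2 stood at the level of Cxcl16 in the comparison cells and at that of Ccl7 in TICs. Cxcl12 has 8176 exon bases in the annotation, the most of the 8 genes, and its level per kb is the lower for it.

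Summed over their members, the stromal chemokines held 111, 171 and 177 CPM per kb in TIC replicates 1 to 3 and 46.7, 56.7 and 54.0 in the comparison cells. The epithelial chemokines held 68.4, 91.5 and 84.6 in TICs and 75.3, 80.4 and 63.4 in the comparison cells. The stromal sums did not overlap between the groups, and the epithelial sums did. The ratio of the stromal to the epithelial sum was 1.62, 1.87 and 2.10 in TICs and 0.620, 0.705 and 0.852 in the comparison cells. Per kb, stromal chemokines were thus the larger part in every TIC sample and the smaller part in every other sample. In CPM not divided by exon length, TIC replicate 1 had 208 CPM of stromal and 255 CPM of epithelial chemokines. Which part was larger in that sample therefore depended on the scaling. On average the stromal sum was 2.91 times and the epithelial sum 1.12 times as high in TICs as in the comparison cells. Cxcl14 and Cx3cl1 were the largest contributors to the mean sums of their groups. In TIC replicate 1, Cxcl14 (51.0 CPM per kb) was below Cx3cl1 (59.7), and Ccl7, Ccl2 and Cxcl12 added 28.0, 23.5 and 8.09 CPM per kb to the stromal sum. No test was made of the sums, since the genes were chosen with earlier results known.

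**Figure D3:**
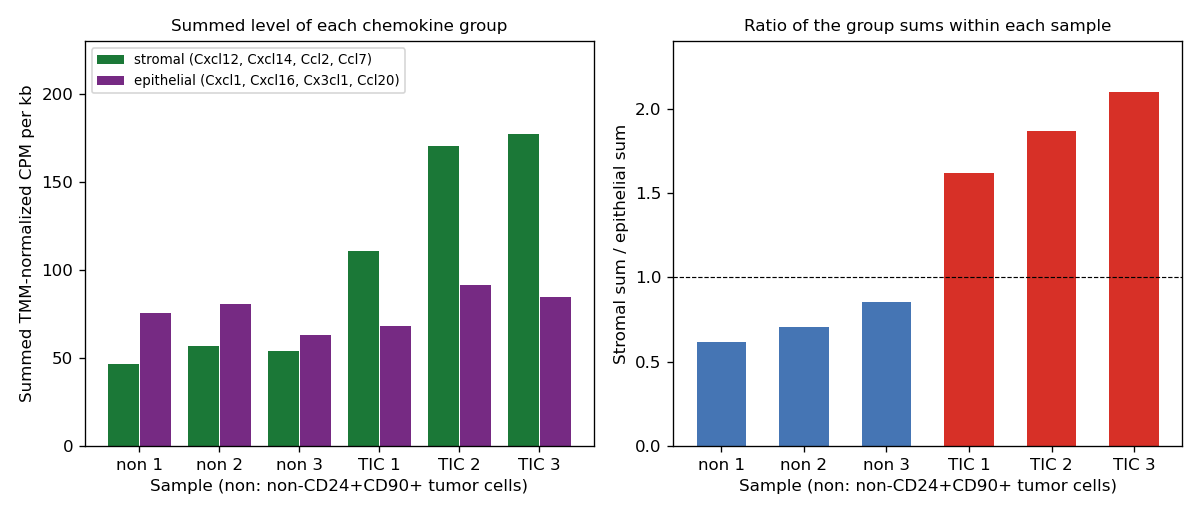
Left, summed TMM-normalized CPM per kb of the 4 stromal (green) and 4 epithelial (purple) chemokines in each of the 6 samples. Right, the ratio of these sums within each sample, which was between 0.620 and 0.852 in non-CD24+CD90+ tumor cells (blue) and between 1.62 and 2.10 in TICs (red).

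Summed markers of fibroblasts, of pericytes and smooth muscle and of endothelium were, like the stromal chemokine sum, higher in every TIC sample than in every comparison sample. In bulk samples, more cells of a type and more RNA per cell cannot be told apart. Of 10 fibroblast markers, 9 were tested and 5 called, all higher in TICs. Among all genes tested, 1.36% were called as higher, which is the share for each list in this paragraph. The lists were chosen with earlier results of these data known, so that the counts of calls are descriptions. The summed CPM of the 10 fibroblast markers ranged from 1949 to 3370 in TICs and from 1077 to 1168 in the comparison cells. Dcn, a small proteoglycan of connective tissue, and Col6a3 had the most CPM of this list, with log2 fold changes of 1.48 and 1.25 (adjusted p = 0.00799 and 0.0122). The quasi-likelihood test called 2 of the 9, against 0.41% of all genes. TIC replicate 1, which had the lowest Cxcl12 and Cxcl14 among TICs, also had the lowest fibroblast sum. Ccl2 did not follow this order, being lowest in TIC replicate 2, which had the highest fibroblast sum, and Ccl7 was lowest in TIC replicate 3. Pericyte and smooth muscle markers had 1 of 10 genes called, Rgs5 (log2 fold change 1.45, adjusted p = 0.000466). Their sum ranged from 952 to 1494 in TICs against 547 to 711. Much of this rise lay in Rgs5, with a mean of 662 CPM in TICs against 242, beside mean sums of 1244 and 635. Of the 10 genes, 8 had positive and 2 negative log2 fold changes. The smooth muscle gene Acta2, named after its values were seen, was at -0.011. Pdgfrb, the receptor of platelet-derived growth factor on these cells, had a log2 fold change of 0.81 (adjusted p = 0.363). Endothelial markers, with Ptprb as the 1 of 10 called (log2 fold change 1.95, adjusted p = 0.0833), ranged from 305 to 1188 against 209 to 270, with the highest sum in TIC replicate 3, and Esam had a log2 fold change of 1.15 (adjusted p = 0.38). All 10 had positive log2 fold changes, and 7 had an unadjusted p below 0.05 in exactTest, against 7.85% of all genes. In only 1 of the 10 was every TIC sample above every comparison sample, an order found in 7.69% of all genes. The part of these cells in the chemokine values was not tested.

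The luminal epithelial markers summed to 3949 to 4527 CPM in TICs and 5952 to 6273 CPM in the comparison cells. None of these 10 genes was called by exactTest, 2 had an unadjusted p below 0.05, DESeq2 called 2 and the quasi-likelihood test 0. Among all genes these shares were 1.55%, 7.85%, 2.58% and 0.41%. All 10 had negative log2 fold changes in exactTest, and DESeq2 gave 9 negative values and 1 positive. In 5 of the 10 every TIC sample was below every comparison sample, an order found in 7.56% of all genes. Krt18, a keratin of luminal cells, and Epcam, an adhesion molecule of epithelial cells, had log2 fold changes of -0.69 and -0.34 (adjusted p = 0.295 and 0.955). The basal markers overlapped between the groups, at 415 to 651 CPM in TICs and 496 to 1071 CPM in the comparison cells, with Krt14 at -0.81 and Krt5 at 0.11 on the log2 scale (adjusted p = 0.423 and 1) and 0 of 7 genes called by exactTest, DESeq2 or the quasi-likelihood test and 1 at an unadjusted p below 0.05. The luminal and basal sums were thus well above 0 in every sample, although the luminal gene Elf3 had no count in TIC replicate 2.

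Of 12 macrophage and leukocyte markers, 6 were tested and 1 was called, against 1.36% of all genes tested that were called as higher in TICs. It was Lyz2, the lysozyme of myeloid cells, which was higher in TICs (log2 fold change 2.68, adjusted p = 0.0125). The sum was 179 to 359 CPM in TICs and 134 to 183 CPM in the comparison cells, and the ranges overlapped. In 3 genes, Lyz2, C1qa and Laptm5, every TIC sample was above every comparison sample, an order found in 7.69% of all genes tested. Laptm5 was not called (adjusted p = 0.89 in exactTest). The defining markers Adgre1, Fcer1g and Cd3e had no count in any sample, whereas Cd68 was counted in all 6 samples, Csf1r had 158 counts in all and Itgam had 67, which were in TICs alone. S100a8, a protein of neutrophils, and C1qa, a complement gene of macrophages, had log2 fold changes of 0.18 and 0.85 (adjusted p = 1 and 0.789). Among the genes of the sorting markers, Ptprc (CD45) was counted 33 times in comparison replicate 1 and had 0 counts in every other sample. For Thy1 (CD90) the log2 fold change was 1.25 (adjusted p = 0.35), and for Cd24a it was -0.34 (adjusted p = 0.985). Both genes overlapped between the groups. Thy1 had 90.3, 206 and 70.0 CPM in TIC replicates 1 to 3 and 75.6, 56.5 and 21.5 CPM in the comparison cells.

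**Figure D4:**
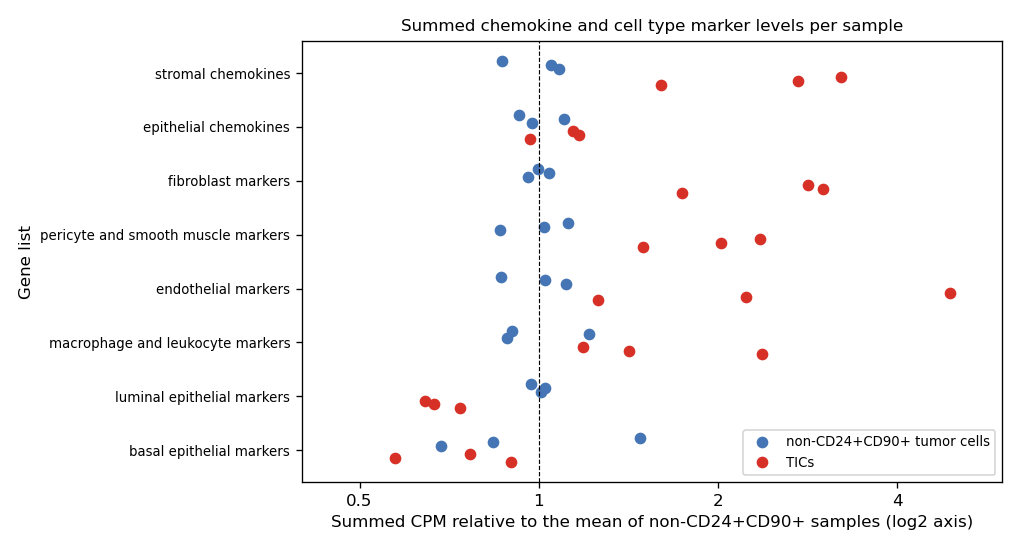
Summed CPM of the chemokine groups and of 6 lists of cell type markers in each sample, relative to the mean of the 3 comparison samples (non-CD24+CD90+), on a log2 axis. TICs (red) were above all comparison samples (blue) for stromal chemokines and for fibroblast, pericyte and endothelial markers, below them for luminal markers, and overlapped for epithelial chemokines and the leukocyte and basal lists.

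A further 31 chemokine ligands were listed, of which 11 passed the filter and 10 had no count in any sample. None was called by exactTest, DESeq2 or the quasi-likelihood test, against 1.55%, 2.58% and 0.41% of all genes. An unadjusted p below 0.05 was found in 1 of the 11, Ccl8, which is near the share of 7.85% among all genes. Ccl8, a monocyte attractant of the same gene cluster as Ccl2 and Ccl7, had 27.8, 25.4 and 19.8 CPM in TICs and 2.18, 8.14 and 9.41 CPM in the comparison cells. Every TIC sample was above every comparison sample, an order found in 7.69% of all genes. The log2 fold change was 1.89 and the adjusted p 0.617.

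Ccl27a, an epithelial chemokine for which near-identical gene copies exist and which is uncertain because non-uniquely mapped reads had been removed, had a log2 fold change of 0.17 (adjusted p = 1). Cxcl9, an interferon-induced attractant of T cells, was at 20.8 ± 13.2 CPM in TICs and 14.5 ± 12.3 CPM in the comparison cells (SD, n = 3), with a log2 fold change of 0.52 (adjusted p = 1). Log2 fold changes of the remaining ligands were 1.89 for Cxcl10, 1.66 for Ccl25, 1.46 for Ccl6, 0.77 for Ccl11, 0.69 for Cklf, 0.35 for Ccl5, 0.25 for Cxcl5 and -2.79 for Ccl9, with adjusted p-values of 0.999 to 1. In all, 10 of the 11 had positive values, against 49.7% of all genes tested. No test was made of this count. Ccl25 exceeded 1 CPM in 3 TIC samples and in 1 comparison sample, so that it passed the filter through the group in which it was higher. Ccl5, Ccl6, Ccl9, Ccl25, Cxcl5 and Cxcl10 had no count in at least 1 sample. Exons of Ccl25 and Cxcl10 share 204 and 133 bases with Elavl1 and Art3 on the opposite strand.

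Receptors were sparse in these cells. Of 18 typical chemokine receptors, 3 passed the filter and 11 had no count in any sample, and 0 were called by exactTest, DESeq2 or the quasi-likelihood test or had an unadjusted p below 0.05. Among all genes the shares were 1.55%, 2.58%, 0.41% and 7.85%, so that 0 among 3 genes is near them. Cxcr4, the signalling receptor of Cxcl12, had 47.0, 12.8 and 39.0 CPM in TICs and 37.5, 56.4 and 15.4 CPM in the comparison cells, and its log2 difference was -0.15 ± 0.65 (standard error, adjusted p = 1). Its ligand Cxcl12 was highest in TIC replicates 2 and 3. Cxcr5, the receptor of Cxcl13, had a log2 fold change of 0.54 (adjusted p = 1). Cx3cr1, the receptor of Cx3cl1 found on monocytes and macrophages, had 3.50, 18.1 and 5.78 CPM in TICs and 3.64, 0.226 and 2.28 CPM in the comparison cells (log2 fold change 2.15, adjusted p = 0.966). Per kb of exon its mean in TICs was 2.03 CPM, against 61.5 CPM for its ligand. Ccr6, the receptor of Ccl20, and Cxcr6, the receptor of Cxcl16, had no count in any sample, and Ccr2, the receptor of Ccl2 and Ccl7, had 21, 7 and 0 counts in the comparison cells and 0, 2 and 0 in TICs. Cxcr2, the receptor of Cxcl1, had 2 counts in replicate 1 of the comparison cells and 0 elsewhere.

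Atypical chemokine receptors, which take up chemokines without G protein signalling, were better represented. Of 5 genes, 4 passed the filter, and 0 were called by exactTest, DESeq2 or the quasi-likelihood test or had an unadjusted p below 0.05. Among all genes the shares were 1.55%, 2.58%, 0.41% and 7.85%, so that 0 among 4 genes is near them. Ackr3, the scavenger of Cxcl12, had 121, 149 and 88.2 CPM in TICs and 58.2, 109 and 96.2 CPM in the comparison cells. The groups overlapped, and the log2 difference was 0.44 ± 0.36 (standard error, adjusted p = 0.983). Ackr2, a scavenger of CC chemokines, reached 56.4 CPM in TIC replicate 2 and at most 20.8 CPM elsewhere (log2 fold change 1.24, adjusted p = 1). Ackr4 and Ccrl2 were at or below 10.1 CPM in every sample, with log2 fold changes of 2.18 and -0.24 (adjusted p = 1 for each).

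Proteases that act on chemokines were listed as well, 12 in all, of which 9 were tested and 4 called, each higher in TICs. Among all genes tested, 1.36% were called as higher. The study had already reported these 4, Mmp14, Mmp2, Mmp13 and Ctsl, as higher in TICs from the same samples. The list was chosen with earlier results known, so that the count of calls is a description and lends no support. The membrane-type metalloproteinase Mmp14 averaged 2595 ± 698 CPM in TICs against 1095 ± 25.5 CPM (SD, n = 3), a log2 fold change of 1.25 (adjusted p = 0.00642). Mmp2, a gelatinase that can trim Cxcl12 and Ccl7, had a log2 fold change of 1.33 (adjusted p = 0.0407), the collagenase Mmp13 of 2.85 (adjusted p = 0.0766) and cathepsin L (Ctsl) of 1.03 (adjusted p = 0.0998). Mmp13 exceeded 1 CPM in 3 TIC samples and in 2 comparison samples, and would not have passed the filter on the latter alone. Ctsl shares exon bases with an antisense transcript and a pseudogene, and its reads could be split among them. The quasi-likelihood test called 1 of the 9, against 0.41% of all genes. The sheddases of Cxcl16 and Cx3cl1, Adam10 and Adam17, chosen for description after their values were seen, had log2 fold changes of -0.29 and -0.44 (adjusted p = 1 and 0.999). Dpp4, the peptidase that inactivates Cxcl12, had at most 45 counts in any sample and was not tested.

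Across the 6 samples, Cxcl12 and Cxcl14 had a Pearson r of 0.93 on the log2 CPM scale, and Cxcl16 and Cx3cl1 of 0.82. Ccl2 and Ccl7 had an r of 0.47. Where both genes differed between the groups, the points share that difference. Cx3cl1 hardly differed (log2 fold change 0.022), but comparison replicate 1 had 0 counts of Cxcl16 and the lowest Cx3cl1, 219.9 CPM. That sample can weigh heavily in the r of this pair, which was not tested. All these values only describe how alike the patterns were. Among 6756 tested genes with a mean of at least 20 CPM, those most like Cxcl12 were Ccnl1 (r = 0.99), Fbxl14 (r = 0.98) and Nrp2 (r = 0.98). The most like Cxcl16 were Letm1, Slc50a1 and Cast, each with an r of 0.99 over the 6 samples. The sample with 0 counts of Cxcl16 enters these values as well.

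**Figure D5:**
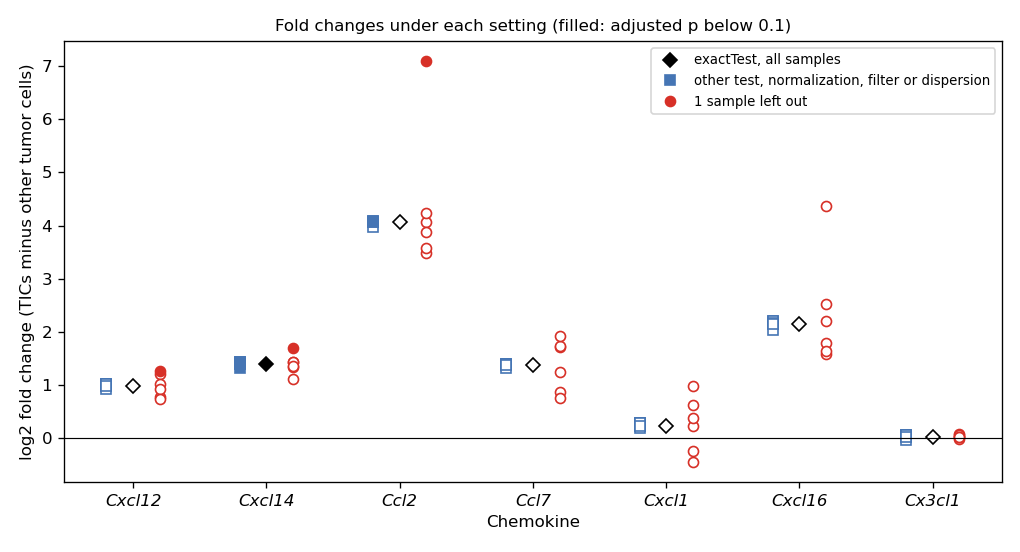
Log2 fold change of the 7 tested chemokines under exactTest with all samples (diamonds), under other tests, normalizations, filters or dispersions (squares) and with 1 sample left out (circles), with filled symbols for an adjusted p below 0.1. Values for the 4 stromal chemokines stayed above 0 throughout, as did those of the epithelial Cxcl16 (1.59 to 4.36). Those of Cxcl1 ranged from -0.45 to 0.98 and those of Cx3cl1 from -0.042 to 0.081.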

How the data were processed

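RNA-seq was available from 6 samples, 3 per group, placed by the labels' descriptions (primary TICs or primary cells), read with the study's 2 groups. The deposited values are raw counts per Ensembl gene. According to the authors' notes, Trimmomatic 0.32 was used for trimming, STAR 2.4.0 for alignment (GRCm38), samtools 1.1 for discarding reads without a unique position, and HTSeq for counting. Genes without unique sequence can therefore be undercounted. The annotation release and strand setting are not given in the sources used here. Symbols were found for 40254 of 41388 genes, and coordinates and exon lengths (all annotated exons merged) came from GENCODE M21.

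Counts were filtered (more than 1 CPM in at least 3 samples), TMM-normalized and compared with exactTest of edgeR 4.0.16 under R 4.3.3 with tagwise dispersions. The study's methods name a CPM threshold, exactTest and the Benjamini-Hochberg adjustment, and the other settings were chosen here. The biological coefficient of variation was 0.82. Standard errors came from the negative binomial model, and intervals are 1.96 standard errors wide on each side. At these depths 3 counts give 0.330 to 0.438 CPM, which covers counting error only. Alternatives were the quasi-likelihood test, DESeq2 1.42.0, other normalizations, filters, dispersions and thresholds, and each sample left out in turn. The scripts were tested on simulated data. Members and gene lists were chosen with earlier results of these data known. The genes named are the 8 chemokines, every tested ligand and receptor, the called genes and the 3 most abundant of the other lists, the sorting markers, the 2 most abundant markers of each cell type, and the 3 genes most like Cxcl12 and Cxcl16. Receptors of the 8 chemokines that did not pass the filter and the genes without a count were named after their values were seen.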

Additional observations from a re-analysis of the deposited data

How the results depend on the processing

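The number of genes called was 189 with exactTest. It was 50 in the quasi-likelihood test, 306 in DESeq2, 112 without a filter, 116 at an adjusted p below 0.05, and 72 to 323 with each sample left out, with the lowest number after removal of comparison replicate 3 and the highest after removal of TIC replicate 1. Of the chemokines, 1 was called (Cxcl14). The quasi-likelihood test called 0 (adjusted p of 0.169 for Cxcl14 at a log2 fold change of 1.40), DESeq2 and trended dispersions called 2 each (Cxcl14 and Ccl2), and the fits that left out a sample called 0 to 2. Without comparison replicate 3 the gene called was Ccl2 in place of Cxcl14, and without TIC replicate 1 Cxcl12 was called beside Cxcl14. With a sample left out, the log2 fold change ranged from 1.11 to 1.70 for Cxcl14, 0.75 to 1.27 for Cxcl12, 3.49 to 7.09 for Ccl2, 0.75 to 1.92 for Ccl7, 1.59 to 4.36 for Cxcl16, -0.45 to 0.98 for Cxcl1 and -0.021 to 0.081 for Cx3cl1. Ccl2 was called at a log2 fold change of 4.09 in DESeq2 and 4.06 with trended dispersions. Cx3cl1 reversed to -0.042 with library size alone. The median of the epithelial chemokines ranged from 0.013 to 0.98 with a sample left out, the highest without comparison replicate 1, and that of the stromal chemokines from 1.14 to 1.57. The cause of these shifts was not tested. Asking for 10 counts or more in each sample left no value for Ccl2, Ccl7 and Cxcl16. Scaling moved the median of all genes to between -0.064 and 0.022. No paired analysis was possible because the labels number the samples 1 to 6 and the groups share no number. Depth limits Ccl20, most receptors and the lower group of Ccl2.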

Other observations

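The NF-kB pathway drives the transcription of several chemokines, including Cxcl1 and Ccl2. Of 18 of its genes listed, 17 were tested, and 0 were called by exactTest or by the quasi-likelihood test. Among all genes 1.55% and 0.41% were called, so that 0 among 17 is near these shares. An unadjusted p below 0.05 was found in 1 gene, Rel, against 7.85% of all genes. DESeq2 called Rel alone of the list, against 2.58% of all genes. The median log2 fold change of the 17 was -0.082, with 6 positive and 11 negative values (8 and 9 with RLE size factors). The inhibitor Nfkbia averaged 274 ± 99.4 CPM in TICs against 281 ± 83.5 CPM (SD, n = 3), and its log2 fold change was -0.035 (adjusted p = 1). Rela, a subunit of the transcription factor, and the kinase Chuk had log2 fold changes of 0.30 and -0.082 (adjusted p = 1 for each). Rel, another subunit, singled out after its values were seen, had 17, 87 and 65 counts in comparison replicates 1 to 3 and none in any TIC sample, so that it passed the filter through the group in which it was higher. In the TIC libraries 10.7% to 15.1% of genes predicted at 50 to 150 counts were at 0. The mean of Rel in the comparison cells was 20.1 times a floor of 3 counts per TIC library. That floor covers counting error only, so that with such a share of zeros it sets no lower bound on the difference. The adjusted p of Rel was 0.107 in exactTest, 0.291 in the quasi-likelihood test and 0.0106 in DESeq2.

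Of 20 other inflammatory cytokines and receptors, 14 were tested and 0 were called by exactTest or by the quasi-likelihood test. Among all genes 1.55% and 0.41% were called. An unadjusted p below 0.05 was found in 3, against 7.85% of all genes. DESeq2 called 1, Il18, against 2.58%. Csf1, the growth factor of macrophages, had 129, 121 and 156 CPM in TICs and 68.8, 83.6 and 82.5 CPM in the comparison cells, without overlap and with a log2 fold change of 0.79 (adjusted p = 0.358). The receptor subunit Il6st had a log2 fold change of 0.96 (adjusted p = 0.399), and Tnfrsf1a, a receptor of tumor necrosis factor, of 0.26 (adjusted p = 1). Il18 and Tnf were singled out after their values were seen. Il18 had 93, 224 and 105 counts in TICs and 2, 9 and 0 counts in the comparison cells, and it too passed the filter through its higher group (adjusted p = 0.107 in exactTest and 0.00449 in DESeq2). Tnf, an inducer of Ccl2 and Cxcl1, had 12, 0 and 17 counts in TICs and 112, 58 and 71 counts in the comparison cells (adjusted p = 0.754 in exactTest). Among all genes tested, 7.69% had all TIC samples above the other group and 7.56% had all below.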
